A study of Homo sapiens with 6 samples.

Results

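Expression of 10 genes that build, desaturate and elongate long-chain fatty acids (SCD, SCD5, FADS1, FADS2, FADS3, ELOVL1, ELOVL5, ELOVL6, FASN and ACACA) was described in H1299 cells with and without a knockdown of CCNB1, the gene of cyclin B1. The 10 genes are the entries with these symbols among the 58336 genes of the count table, and they were grouped by function after SCD had been seen to differ sharply between the knockdown libraries. SCD values are therefore given here as a description, without a test. H1299, an established line of human lung carcinoma cells, was sequenced as 3 knockdown libraries, whose cells expressed a CCNB1 short hairpin RNA (shRNA) from a PLVT7 vector, and 3 mock libraries, whose cells had the mock PLVT7 vector and are labelled WT. Both groups were selected as stable transfectants with 1 µg/ml puromycin, applied to cells 14 days after confluence, and were grown in medium with 10% serum. A single hairpin is named, and the sources used here do not say whether each line was a pool or a clone. The labels do not say whether libraries of 1 group stem from different cultures. The p-values therefore reflect library-to-library spread alone, and that spread may be technical.

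Fatty acid synthesis starts when acetyl-CoA carboxylase, the product of ACACA, makes malonyl-CoA, from which fatty acid synthase, the product of FASN, builds palmitate. Stearoyl-CoA desaturase, the product of SCD, puts the first double bond into saturated acyl chains and so makes oleate and palmitoleate. FADS1, FADS2 and ELOVL5 act on the polyunsaturated branch, while FADS3, ELOVL1 and ELOVL6 act on other substrates, named with each gene below. Several of these genes are textbook targets of the sterol regulatory element-binding proteins (SREBPs), which act on promoters together with the CCAAT-binding factor NF-Y.

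The promoters of the paired desaturase genes SCD and SCD5 are shown because SCD and SCD5, which catalyse the same reaction, had different patterns in these libraries. The promoter table, from RefSeq on GRCh38.p14, held 12 windows for 9 of the 10 genes, each running from 250 bases before to 50 bases after a transcript start, and FASN had none there. The stretches printed are the bases of each window upstream of every annotated start of the gene, read 5′ to 3′ on the gene's strand, with capitals marking CCAAT or its reverse complement ATTGG. The SCD stretch is chr10:100346983-100347123 on the plus strand, and the SCD5 stretch is chr4:82798858-82799046 on the minus strand.
SCD: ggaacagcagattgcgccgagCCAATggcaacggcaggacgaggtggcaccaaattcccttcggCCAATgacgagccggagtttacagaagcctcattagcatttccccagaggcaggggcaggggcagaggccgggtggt
SCD5: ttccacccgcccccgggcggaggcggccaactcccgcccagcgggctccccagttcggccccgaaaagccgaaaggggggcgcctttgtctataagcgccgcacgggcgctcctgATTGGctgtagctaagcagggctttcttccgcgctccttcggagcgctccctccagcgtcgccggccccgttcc

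The SCD window held CCAAT 2 times, with first bases at -229 and -186 from the RefSeq start, and the SCD5 window held ATTGG once, at -135. CCAAT on either strand was present in 8 of the 12 windows and in 7 of the 9 genes, against 34.6% of 35116 windows of the same length over all genes. The letters TCACNCCAC, one form of the sterol regulatory element, were in 0 of the 12 windows (1.13% of all windows), and AGGTCA repeated after a gap of 4 bases, an element of the liver X receptors, was also in 0 (0.0199% of all windows). The E-box CACGTG was in 1 window, that of ELOVL5, against 7.26% of all windows. These matches describe letters in short windows and do not show binding.

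One further sequence was looked up because it had come up among genes with lower counts in an earlier reading of these same libraries. Matches to it are therefore a description and not independent support, and its part in the values of any gene was not tested. The heptamer GTACTAT was in the 3′ UTR of 891 of 13172 tested genes with a searched UTR (6.76%), and in that of 1 of the 10 lipid genes, ELOVL5. Its 2 matches began at bases 594 and 1448 of the 1729-base UTR, and they are shown with the heptamer in capitals.
ELOVL5 first match: ccttcagttttGTACTATtggctttgaatc
ELOVL5 second match: tttgcacattcGTACTATagggagcctatt

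The libraries held 28315736 to 30332989 counted reads in the knockdown group and 28122665 to 29545322 in the mock group, so 3 reads corresponded to 0.0939 to 0.106 CPM, a read count relative to the TMM-scaled total of its library. All 10 genes lay far above that level. CCNB1 had 19.9, 29.8 and 16.1 CPM in knockdown libraries 1, 2 and 3, against 322, 305 and 294 CPM in mock libraries 1, 2 and 3, which is 14.0-fold lower (log2 difference -3.81, SE 0.22, adjusted p = 0.000215 in edgeR's quasi-likelihood test). Knockdown library 2 thus kept the most CCNB1, and over all genes it also stood apart from its group. A chi-square per degree of freedom between the counts of knockdown library 2 and each mock library was 25.2 to 29.9, whereas it was 67.2 to 73.8 between knockdown library 2 and the other 2 knockdown libraries, 24.4 between knockdown libraries 1 and 3, and 12.8 to 27.5 among mock libraries. Lung lineage markers were scarce in every library: 7 of 9 were under 1 CPM throughout, with SFTPA1 and SFTPA2 at 0 and the list summing to 7.01 to 8.20 CPM in knockdown and 5.98 to 6.75 CPM in mock libraries. Of 7 adipocyte markers, 6 were under 1 CPM throughout, and the sum was 2.53 to 3.35 CPM in knockdown against 0.776 to 0.914 CPM in mock libraries. That sum was mostly PLIN4, with 2.13, 3.11 and 2.49 CPM in knockdown libraries 1, 2 and 3, against 0.844, 0.705 and 0.830 CPM in mock libraries 1, 2 and 3.

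Across the 17349 genes with enough counts to test, which included all 10 lipid genes, 4 passed an adjusted p of 0.05 (0.0231%), and all 4 (CCNB1, NEK7, SMIM30 and TIMM23) were lower in knockdown libraries. Of the 9 lipid genes other than SCD, 0 passed in edgeR and 0 in DESeq2, the lowest adjusted p in edgeR being 0.168. An unadjusted p under 0.05 was reached by 4 of the 9 (FADS1, FADS3, ELOVL5 and FASN), against 15.0% of all genes tested. The knockdown and mock values did not overlap for 4 of the 9 (SCD5, FADS1, FADS3 and ELOVL5), against 19.7% of all genes. Of the 9 genes, 4 were higher and 5 lower in knockdown libraries, with a median log2 difference of -0.21, beside 0.02 over all genes. Leaving out each library in turn, 0 of the 9 genes passed in 5 of the 6 cases, when the count over all genes was 1 each time. Without knockdown library 2, 5 of the 9 passed (FADS1, FADS3, ELOVL5, FASN and ACACA), when 2453 of 17750 genes did (13.8%). Knockdown library 2 is the one in which SCD stood apart, the difference that led to the choice of genes. Adjusted p-values without it, here and below, are therefore descriptions and not independent support.

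SCD was, per length, the most abundant of the 10 genes and had the widest range among knockdown libraries. It had 1227, 8363 and 1511 CPM in knockdown libraries 1, 2 and 3, against 6459, 6948 and 6643 CPM in mock libraries 1, 2 and 3. Knockdown libraries 1 and 3 were at 18.4% and 22.6% of the mock mean, while knockdown library 2 was at 125% of it and above every mock library, so the groups overlapped. The highest knockdown value was 6.82 times the lowest, and in mock libraries this ratio was 1.08. The group means were 3700.3 ± 4041 CPM in knockdown and 6683 ± 247 CPM in mock libraries (SD, n = 3 each), a log2 difference of -0.85 that became -2.29 without knockdown library 2 and lay between -2.29 and -0.48 when each library was left out in turn. These values rest on 39212, 236995 and 44964 reads in knockdown libraries 1, 2 and 3 and on 183730, 197078 and 192131 reads in mock libraries 1, 2 and 3. The processed pseudogene SCDP1, a copy to which SCD reads could be assigned, drew 6, 119 and 19 reads in knockdown libraries 1, 2 and 3, against 95, 77 and 92 in mock libraries 1, 2 and 3. In bulk RNA of this kind, fewer cells expressing a gene and less RNA of it per cell cannot be told apart.

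The vimentin gene VIM, a mesenchymal marker, was high and low in the same libraries as SCD, with 1739, 3327 and 1876 CPM in knockdown libraries 1, 2 and 3, against 3178, 3279 and 3142 CPM in mock libraries 1, 2 and 3. The 6 mesenchymal markers together summed to 1891 to 3544 CPM in knockdown and 3324 to 3475 CPM in mock libraries, a sum made mostly by VIM. Without knockdown library 2, the log2 difference in edgeR was -0.83 for VIM (adjusted p = 0.00135), -0.66 for SNAI2 (0.182) and -0.57 for FN1 (0.0594). It was -0.34 for ZEB1 (0.0571), -0.20 for TWIST1 (0.374) and 0.02 for CDH2 (0.910), so VIM alone passed. The 7 epithelial markers summed to 842 to 1653 CPM in knockdown and 607 to 691 CPM in mock libraries, a sum made almost wholly by KRT8 and KRT18. CDH1, EPCAM and KRT19 were under 1 CPM throughout, and KRT19 was lower in every knockdown library (0.0626, 0.318 and 0.235 CPM) than in any mock library (0.527, 0.670 and 0.484 CPM). These KRT19 values rest on few reads, and the one in knockdown library 1 is under the 0.0939 CPM of 3 reads. The part of these markers in the SCD values was not tested.

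**Figure D1:**
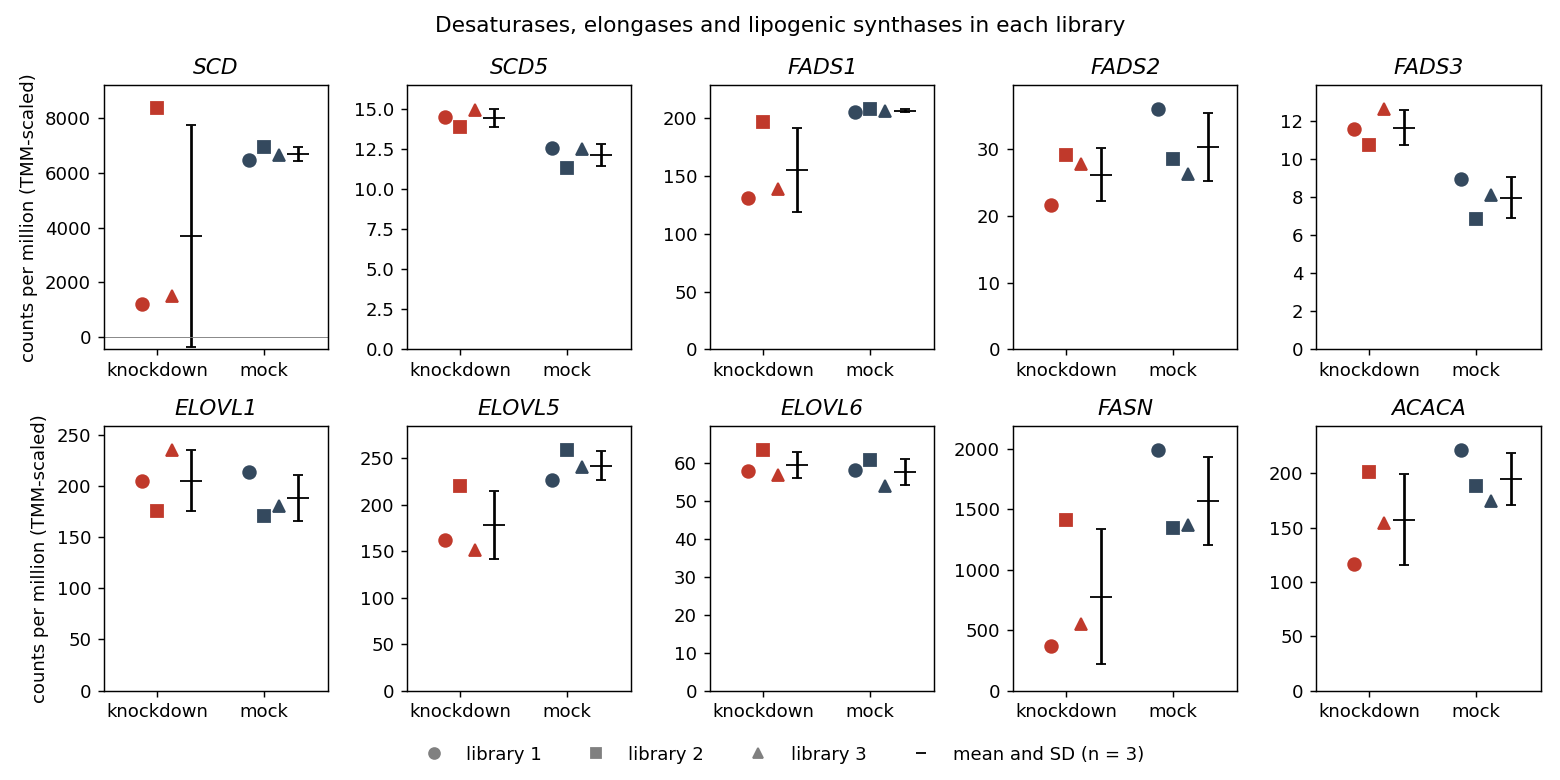
CPM, on TMM-scaled library totals, of the 10 lipid genes in each knockdown (red) and mock (dark blue) library; circles, squares and triangles are libraries 1, 2 and 3, and the bars are the mean with its SD (n = 3). The square of knockdown library 2 lies above the mock libraries in SCD (8363 CPM) and among them in FASN, while knockdown libraries 1 and 3 lie far below them in both genes (1227 and 1511 CPM of SCD); the SD of SCD in the knockdown group exceeds its mean, so its bar crosses 0.

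SCD5, the second human stearoyl-CoA desaturase, was above mock in all 3 knockdown libraries. It had 14.5, 13.9 and 15.0 CPM in knockdown libraries 1, 2 and 3, against 12.6, 11.3 and 12.5 CPM in mock libraries 1, 2 and 3. All 3 knockdown values were above all 3 mock values, and knockdown library 2 did not stand apart. The means were 14.5 ± 0.560 CPM in knockdown and 12.1 ± 0.713 CPM in mock libraries (SD, n = 3 each), a log2 difference of 0.25 (SE 0.13, adjusted p = 0.409 in edgeR) that did not pass the test. SCD lies on chromosome 10 (100347124 to 100364834, plus strand) and SCD5 on chromosome 4 (82629539 to 82798857, minus strand) in GRCh38, with exons covering 5362 and 4292 bases.

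FADS1, FADS2 and FADS3 lie on chromosome 11 in GRCh38. FADS1 (61799625 to 61829318, minus strand) lies within the span of FADS2 (61792980 to 61867354, plus strand), and FADS3 (61873519 to 61892051, minus strand) lies beside them. FADS1 and FADS2 are the front-end desaturases of polyunsaturated fatty acid synthesis, and FADS3 acts on sphingoid bases. FADS1 had 130.7, 197 and 139 CPM in knockdown libraries 1, 2 and 3, against 206, 208 and 206 CPM in mock libraries 1, 2 and 3. Every knockdown value was below every mock value, by little in knockdown library 2, and the mock libraries were almost level. The log2 difference of FADS1 was -0.41 (SE 0.16, adjusted p = 0.281), and without knockdown library 2 it was -0.62 (adjusted p = 0.00496).

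FADS3 ran the other way from FADS1, with 11.6, 10.8 and 12.6 CPM in knockdown libraries 1, 2 and 3, against 8.96, 6.84 and 8.13 CPM in mock libraries 1, 2 and 3. The groups did not overlap, and knockdown library 2 was the lowest of its group. Its log2 difference of 0.55 (SE 0.16) had the smallest adjusted p of the 9 genes, 0.168 in edgeR, and was 0.60 with an adjusted p of 0.0334 without knockdown library 2. FADS2 had 21.6, 29.1 and 27.7 CPM in knockdown libraries 1, 2 and 3, against 36.0, 28.5 and 26.2 CPM in mock libraries 1, 2 and 3. Its groups overlapped, and the log2 difference was -0.21 (SE 0.17, adjusted p = 0.586), or -0.070 without mock library 1 and -0.30 without mock library 3. FADS1 and FADS2 run on opposite strands and share 490 exon bases, 4.79% of the exon length of FADS1 and 4.44% of that of FADS2. The sources used here do not give the strand setting of the counting. Reads in the shared bases therefore cannot be assigned, and the FADS1 and FADS2 values are uncertain to that extent.

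Of the 3 elongases, ELOVL5 was the one whose knockdown values all lay below mock. ELOVL5, which extends polyunsaturated chains, had 163, 220.1 and 152 CPM in knockdown libraries 1, 2 and 3, against 227, 259 and 241 CPM in mock libraries 1, 2 and 3. The groups did not overlap, with knockdown library 2 just under the lowest mock library. The log2 difference was -0.44 (SE 0.16, adjusted p = 0.233 in edgeR), and it was -0.63 (adjusted p = 0.00662) without knockdown library 2. ELOVL5 lies on chromosome 6 (53267398 to 53349179, minus strand).

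ELOVL6, which extends palmitate to stearate and so supplies the substrate of SCD, was level. It had 57.7, 63.2 and 56.8 CPM in knockdown libraries 1, 2 and 3, against 58.0, 60.7 and 53.8 CPM in mock libraries 1, 2 and 3. The log2 difference of 0.04 (SE 0.12, adjusted p = 0.892) was within the spread of both groups and changed sign, to -0.0073, without knockdown library 2. ELOVL1, an elongase of saturated and monounsaturated very-long-chain fatty acids, had 205, 176 and 235 CPM in knockdown libraries 1, 2 and 3, against 213, 171 and 181 CPM in mock libraries 1, 2 and 3. Here knockdown library 2 was the lowest of its group, the groups overlapped, and the log2 difference was 0.12 (SE 0.15, adjusted p = 0.721), or 0.011 without knockdown library 3 and 0.22 without knockdown library 2. ELOVL6 lies on chromosome 4 (110045846 to 110199199, minus strand) and ELOVL1 on chromosome 1 (43363397 to 43368074, minus strand).

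Of the other 9 genes, FASN came closest to SCD in its pattern over the libraries. It had 371, 1415 and 549 CPM in knockdown libraries 1, 2 and 3, against 1989, 1344 and 1372 CPM in mock libraries 1, 2 and 3. Knockdown libraries 1 and 3 were at 23.6% and 35.0% of the mock mean, and knockdown library 2, at 90.2%, lay among the mock libraries. The means were 778 ± 558 CPM in knockdown and 1568 ± 365 CPM in mock libraries (SD, n = 3 each), and the log2 difference of -1.01 (SE 0.41) had an adjusted p of 0.291 in edgeR. Without knockdown library 2 it was -1.77 (adjusted p = 0.00136). Without any filter on low counts FASN passed with an adjusted p of 8.08e-09 in edgeR at a log2 difference of -1.05. In that run 1077 genes passed, against 4 with the filter. FASN did not pass in DESeq2 (adjusted p = 0.435), nor in edgeR with the replicate number as a block (adjusted p = 0.0875).

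ACACA, at the step before FASN, moved over a narrower range. It had 117, 201 and 154 CPM in knockdown libraries 1, 2 and 3, against 221, 189 and 174 CPM in mock libraries 1, 2 and 3. Knockdown library 2 again lay among the mock libraries and the other 2 lay below them. The log2 difference was -0.31 (SE 0.19, adjusted p = 0.481), and -0.52 (adjusted p = 0.0483) without knockdown library 2. FASN (82078333 to 82098332) and ACACA (37084988 to 37406818) both lie on the minus strand of chromosome 17.

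**Figure D2:**
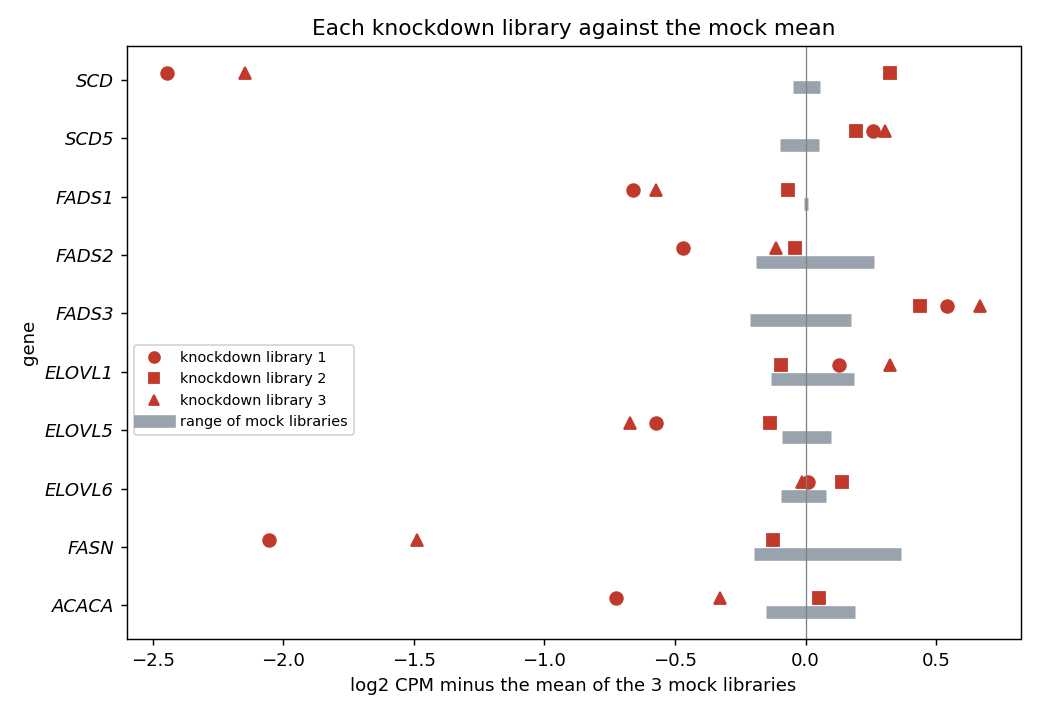
Log2 CPM of each lipid gene in the 3 knockdown libraries minus the mean of the mock libraries, with the range of the mock libraries as a grey bar. Knockdown libraries 1 and 3 lie far left of 0 for SCD (-2.44 and -2.14) and FASN (-2.06 and -1.49), while knockdown library 2 stays near 0 for both (0.32 and -0.12); SCD5 and FADS3 lie right of 0 in all 3 knockdown libraries.

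Set against the range of the mock libraries, 22 of the 30 values of the 10 genes in knockdown libraries lay outside it. These include SCD, whose values led to the choice of genes, below all mock libraries in 2 knockdown libraries and above them in 1. Knockdown library 1 was below all mock libraries for 6 of the 10 genes and above them for 2, and knockdown library 3 was below for 5 and above for 3. Over all genes tested, 32.2% were below and 36.0% above in knockdown library 1, and 32.2% below and 35.2% above in knockdown library 3. Knockdown library 2 was below the mock range for 2 of the 10 (FADS1 and ELOVL5) and above it for 4 (SCD, SCD5, FADS3 and ELOVL6), beside 27.3% and 32.4% of all genes.

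The distance between knockdown library 2 and the other 2 knockdown libraries was taken as log2 CPM in library 2 minus the mean of libraries 1 and 3. It was 2.62 for SCD, the 4th highest of 11469 genes with at least 5 CPM, and 1.65 for FASN, the 25th highest. ACACA (0.58), FADS1 (0.55) and ELOVL5 (0.49) followed, and ELOVL1 (-0.32), FADS3 (-0.17) and SCD5 (-0.09) lay on the other side of 0. Over all 11469 genes the median was 0.01, and 391 genes (3.41%) differed by 1 or more in either direction. With a single library against 2, no test was made. SCD had been noticed for this very difference, so its rank is not a separate result.

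Levels between genes were compared per length, as FPKM, the deposited counts divided by exon length and library total. SCD averaged 694 ± 751 FPKM in knockdown and 1227 ± 74.5 FPKM in mock libraries (SD, n = 3 each) and ranked first of the 10 in every library. FASN followed in mock libraries, with 83.8 ± 59.0 FPKM in knockdown and 164 ± 34.9 FPKM in mock libraries, and had rank 4 in knockdown library 1 and rank 3 in knockdown library 3. The order then ran ELOVL1 (83.2 ± 11.9 FPKM in knockdown, 73.7 ± 7.11 in mock), ELOVL5 (47.4 ± 9.32 and 62.5 ± 5.60), FADS1 (15.4 ± 3.34 and 19.9 ± 0.594), ACACA (12.2 ± 3.01 and 14.7 ± 1.62) and ELOVL6 (8.26 ± 0.458 and 7.76 ± 0.590). The lowest were SCD5 (3.43 ± 0.172 FPKM in knockdown, 2.78 ± 0.105 in mock), FADS2 (2.40 ± 0.302 and 2.69 ± 0.412) and FADS3 (1.89 ± 0.153 and 1.25 ± 0.139). In mock libraries SCD5 and FADS2 overlapped, and so their order there is not settled.

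Because SCD was so abundant, its share of the FPKM of the 5 desaturase genes stayed high throughout. The share was 92.0%, 98.3% and 92.9% in knockdown libraries 1, 2 and 3, against 97.8%, 98.0% and 97.9% in mock libraries 1, 2 and 3. The ratio of SCD to SCD5 FPKM was 67.6, 483 and 80.7 in knockdown libraries 1, 2 and 3, against 411, 491 and 425 in mock libraries 1, 2 and 3. Even in the library with the least SCD, then, SCD RNA outweighed SCD5 RNA many times over per length.

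**Figure D3:**
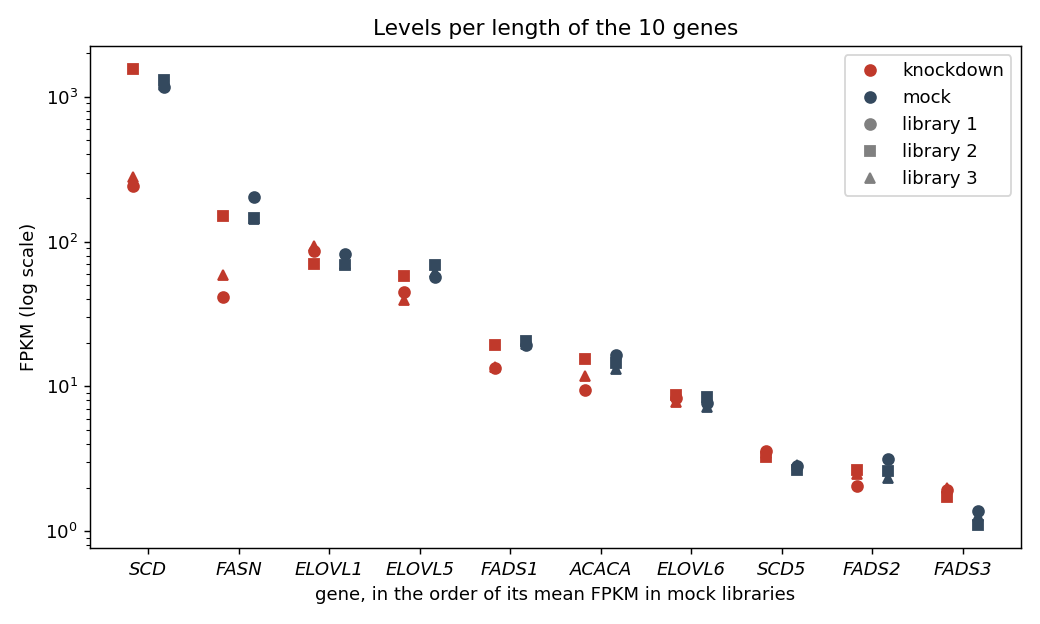
FPKM, on a log axis, of the 10 lipid genes in each knockdown (red) and mock (dark blue) library, in the order of their mock means. SCD leads in every library (241 FPKM at the lowest, in knockdown library 1), and FASN takes rank 4 in knockdown library 1.

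The genes whose pattern over the 6 libraries was most like that of SCD were ranked by the root mean square difference in log2 CPM, each centred on its mock mean, among 10803 genes. Among the 8 closest were MMP10 (0.225), SORCS2 (0.267), MMP1 (0.308), BHLHE40 (0.312), LIF (0.324), TGFA (0.352) and TMEM158 (0.356), which include 2 matrix metalloproteases, a growth factor and a cytokine. FASN was 12th (0.418), and the next of the 10 lipid genes were FADS1 and ELOVL5 at ranks 640 and 670. MMP1, as an example, had 17.7, 146 and 27.4 CPM in knockdown libraries 1, 2 and 3, against 141, 128 and 165 CPM in mock libraries 1, 2 and 3. When log2 of FPKM plus 1 was used, 5 of the 8 genes were the same. MMP10, SORCS2 and TGFA were then not among the 8 closest, while GDF15 (0.315), FASN (0.423) and the SREBP target STARD4 (0.425) were. Whether FASN is among the closest genes thus depends on the scale.

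The genes around the 10 were read in 8 lists, and in every list 0 genes passed in edgeR. Genes named for their p are the 3 with the smallest in their list among those with at least 5 CPM in the higher group. The list of SREBP pathway proteins and lipogenic regulators had 25 tested genes, of which 9 were higher and 16 lower in knockdown libraries, with a median log2 difference of -0.11. An unadjusted p under 0.05 was reached by 5 of the 25, near the 15.0% of all genes tested. SREBF1, which encodes the SREBP that drives lipogenic genes, had 127, 621 and 209.8 CPM in knockdown libraries 1, 2 and 3, against 591, 438 and 526 CPM in mock libraries 1, 2 and 3. It was low in the same 2 libraries as SCD and FASN and highest of all in knockdown library 2, and its log2 difference was -0.70 (adjusted p = 0.502). INSIG1, an SREBP target that holds SREBPs in the endoplasmic reticulum, had 125, 322 and 139.5 CPM in knockdown libraries 1, 2 and 3, against 296, 294 and 325 CPM in mock libraries 1, 2 and 3 (log2 difference -0.64, adjusted p = 0.361). SREBF2, the SREBP of the cholesterol pathway, had 174, 293 and 205 CPM in knockdown libraries 1, 2 and 3, against 327, 274 and 292 CPM in mock libraries 1, 2 and 3 (-0.41, adjusted p = 0.339). The 3 genes so named in this list were NR1H2, a liver X receptor (-0.48, adjusted p = 0.159), MID1IP1, which promotes polymerisation of acetyl-CoA carboxylase (-0.72, adjusted p = 0.161), and MBTPS2, a protease that releases SREBPs (-0.41, adjusted p = 0.207). Without knockdown library 2, 9 of the 25 passed, beside 13.8% of all genes. Of these, 8 were lower, among them SREBF1 (-1.63, adjusted p = 0.00180), INSIG1 (-1.20, adjusted p = 0.000299) and SREBF2 (-0.66, adjusted p = 0.00990), and 1 was higher, PPARG, which was named after its value was seen. These p-values, too, come from leaving out the library in which SCD stood apart, and are descriptions.

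The other SREBP target genes, mostly of cholesterol synthesis, had the lowest median of the 8 lists. Of 17 tested genes 3 were higher and 14 lower in knockdown libraries, with a median log2 difference of -0.47, and 9 had an unadjusted p under 0.05, beside 15.0% of all genes. FDPS, which makes farnesyl diphosphate, had 109, 229.7 and 103 CPM in knockdown libraries 1, 2 and 3, against 336, 287 and 273 CPM in mock libraries 1, 2 and 3. Its groups did not overlap, with knockdown library 2 again nearest to mock (log2 difference -1.02, adjusted p = 0.155), and SQLE (-0.49, adjusted p = 0.186) and DHCR7 (-0.49, adjusted p = 0.188) came next. The list's median was -0.67, -0.16 and -0.57 in knockdown libraries 1, 2 and 3. With knockdown library 2 left out, 13 of the 17 passed, 12 lower and 1 higher (TMEM97, named after its value was seen), beside 13.8% of all genes.

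The list for the supply of acetyl-CoA, malonyl-CoA and NADPH had 15 tested genes, not all of them supply enzymes. Of these genes, 7 were higher and 8 lower, with a median log2 difference of -0.15. An unadjusted p under 0.05 was reached by 3 of them, near the 15.0% of all genes. The median was -0.28 without knockdown library 2 and -0.058 without knockdown library 1. ACLY, which makes cytosolic acetyl-CoA from citrate, had 188, 318 and 208 CPM in knockdown libraries 1, 2 and 3, against 395, 339 and 342 CPM in mock libraries 1, 2 and 3. All knockdown values were below all mock values, those of libraries 1 and 3 by more (log2 difference -0.59, adjusted p = 0.205). The NADPH-forming enzymes IDH1 (-0.63, adjusted p = 0.162) and ME1 (-0.45, adjusted p = 0.257) had the same order of libraries, with library 2 nearest to mock. When that library was left out, 5 of the 15 passed, beside 13.8% of all genes, all lower: ACLY, IDH1 and ME1, and ACSS2 and TRIB3, which were named after their values were seen. TRIB3 is not itself a supply enzyme.

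Acyl-CoA activation and binding genes numbered 14, with 5 higher, 9 lower, a median log2 difference of -0.17 and 5 at an unadjusted p under 0.05, beside 15.0% of all genes. ACSL4, which activates arachidonate and other polyunsaturated fatty acids, had 74.1, 116 and 64.8 CPM in knockdown libraries 1, 2 and 3, against 179.9, 231 and 213 CPM in mock libraries 1, 2 and 3. All 3 knockdown libraries, library 2 included, were well below every mock library (log2 difference -1.29, adjusted p = 0.0848), unlike the values of SCD. ACSL3 (-0.63, adjusted p = 0.199) and ACSL1 (-0.28, adjusted p = 0.315) followed in this list. In the fit that left out knockdown library 2, 5 of the 14 passed, beside 13.8% of all genes, of which ACSL3, ACSL4 and SLC27A1 were lower and SLC27A2 and FABP5 higher, SLC27A1, SLC27A2 and FABP5 being named after their values were seen.

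Glycerolipid and phospholipid acylation genes numbered 28, with 12 higher, 16 lower, a median log2 difference of -0.03 and 3 at an unadjusted p under 0.05, beside 15.0% of all genes. The median was -0.097 without knockdown library 1 and 0.02 when scaled by library totals alone. GPAT3, a glycerol-phosphate acyltransferase, had 29.2, 36.5 and 29.3 CPM in knockdown libraries 1, 2 and 3, against 59.6, 61.4 and 62.1 CPM in mock libraries 1, 2 and 3. The 3 knockdown libraries were close to each other and far below mock (log2 difference -0.95, adjusted p = 0.0651). CHKA, a choline kinase (-0.43, adjusted p = 0.243), and GPAM, the mitochondrial glycerol-phosphate acyltransferase (0.45, adjusted p = 0.329), were the next by p. Of the 28, 4 passed without knockdown library 2, near the 13.8% of all genes. GPAT3, LPIN1 and LPCAT3 were lower and GPAM higher, and LPIN1 and LPCAT3 were named after their values were seen.

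Genes of desaturase electron transfer and other desaturases numbered 10, with 6 higher, 4 lower, a median log2 difference of 0.12 and 3 at an unadjusted p under 0.05, beside 15.0% of all genes. The cholesterol pathway desaturase SC5D had a log2 difference of -0.62 (adjusted p = 0.135), and the cytochrome b5 reductase genes CYB5R1 and CYB5R4 had 0.40 (adjusted p = 0.217) and 0.19 (adjusted p = 0.537). SC5D was the 1 gene of this list to pass without knockdown library 2, beside 13.8% of all genes. Other elongases and enzymes of the elongation cycle numbered 9, with 4 higher, 5 lower, a median of -0.02 and 2 at an unadjusted p under 0.05. Without knockdown library 2 it had 6 higher, 3 lower and a median of 0.13, the opposite sign. There the elongase ELOVL7 had a log2 difference of 0.56 (adjusted p = 0.188), the ketoacyl-CoA reductase HSD17B12 -0.51 (adjusted p = 0.341) and the enoyl-CoA reductase TECR -0.26 (adjusted p = 0.386). Of these 9, 2 passed without knockdown library 2, HSD17B12 lower and ELOVL3, named after its value was seen, higher. The 21 fatty acid oxidation genes, of which 15 were higher and 6 lower, had a median of 0.04 and 1 gene at an unadjusted p under 0.05. The median was 0.13 without knockdown library 2, when 0 passed. Among them ACADVL, the very-long-chain acyl-CoA dehydrogenase, had a log2 difference of -0.41 (adjusted p = 0.216), the thiolase ACAA1 -0.38 (adjusted p = 0.344) and CPT1A, which transfers acyl groups from CoA to carnitine, 0.27 (adjusted p = 0.380).

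**Figure D4:**
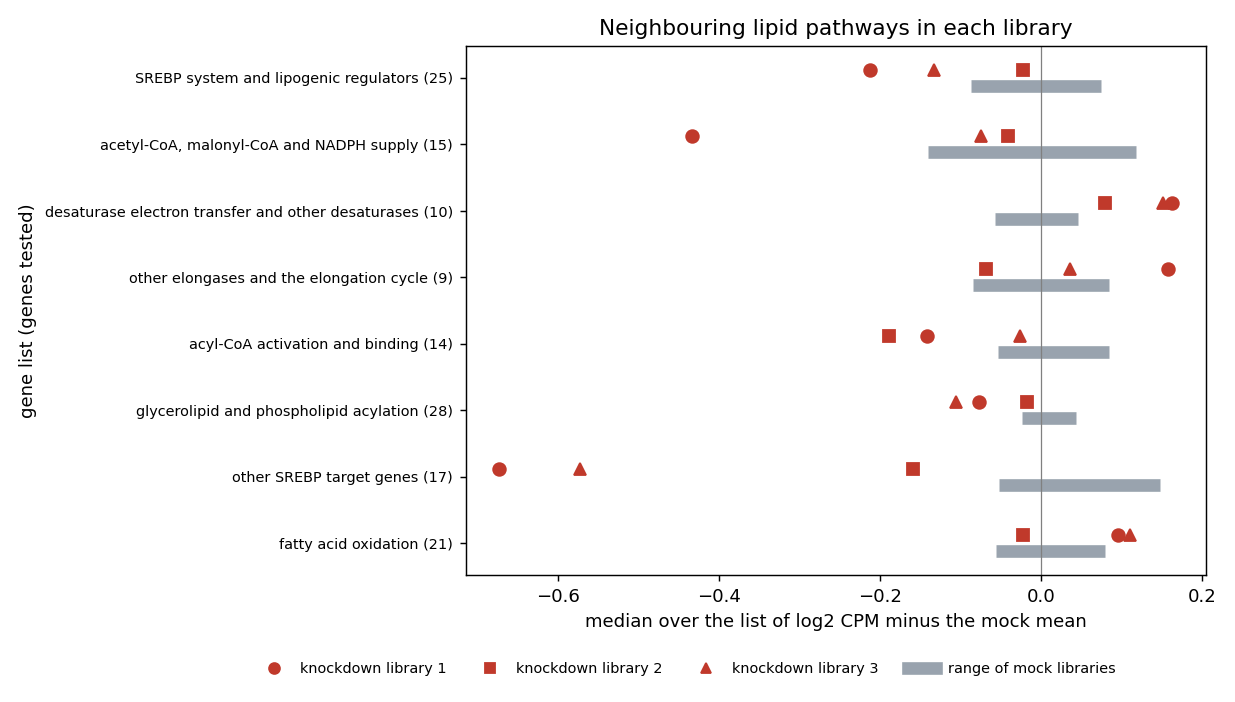
Median over each gene list of log2 CPM minus the mock mean in knockdown libraries 1 (circle), 2 (square) and 3 (triangle), with the range of the 3 mock libraries as a grey bar and the number of genes tested in brackets. The other SREBP target genes lie furthest left in knockdown libraries 1 and 3 (-0.67 and -0.57) and nearer to 0 in knockdown library 2 (-0.16). The acetyl-CoA, malonyl-CoA and NADPH supply list lies left of the mock range in knockdown library 1 (-0.43).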

How the data were processed

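RNA from 3 knockdown and 3 mock libraries of H1299 cells was converted to NEBNext Ultra libraries for an Illumina NovaSeq, per the labels' protocols. The authors deposited a table of raw counts and one of FPKM, per the file headers, and FPKM equalled the count over gene length and library total. The submitters' processing notes name HISAT2 2.1.0 and featureCounts 2.0.3, besides bcl2fastq 2.20 and DESeq2, and the build GRCh38.p13. The sources used here do not give the strand setting, the handling of multi-mapping reads or the annotation release. Deposited FPKM matched GENCODE 29 exon lengths within 0.5 bases for 33609 of 34493 genes (97.4%), so positions were taken from that annotation (GRCh38).

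The counts were tested in edgeR 4.0.16 (R 4.3.3) with filterByExpr, TMM scaling and the quasi-likelihood F test on the group alone, with Benjamini-Hochberg adjustment over all genes tested and a threshold of 0.05. CPM used TMM-scaled totals, and values relative to mock used log2 CPM with a prior count of 2. An SE is the log2 difference over the square root of F. The code was tested on simulated data. Alternatives were no filter on low counts, other scaling, DESeq2 1.42.0, the replicate number as a block, log2 of FPKM plus 1, and leaving out each library. Named genes were all 10 members, CCNB1, SREBF1, SREBF2, INSIG1, ACLY, the 8 genes most like SCD (1 of which is not reported here), and from each list those past the threshold or else the 3 with the smallest p at 5 CPM or more. The members and lists were chosen with earlier results of these data known.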

Additional observations from a re-analysis of the deposited data

How the results depend on the processing

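The number of genes past the threshold, 4, was 1077 with no filter on low counts, 5 with RLE size factors, 2 with library totals alone, 564 in DESeq2, and between 1 and 2453 when each library was left out in turn, the highest being without knockdown library 2. Of the 9 lipid genes other than SCD, the 0 that passed became 1 (FASN) with no filter and 0 to 5 when each library was left out, again highest without knockdown library 2, and stayed at 0 with RLE factors, library totals, DESeq2 and the block. The cause of these changes was not tested. ELOVL6 changed sign, to -0.0073 without knockdown library 2 and to -0.00093 without mock library 3, within a range of -0.0073 to 0.081 over the libraries left out, and the other 8 tested genes and SCD kept their direction in every alternative run.

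In the gene lists, where 0 genes passed, no filter gave 5 in the SREBP system list, 4 in the supply list, 2 in the desaturase electron transfer list, 1 in the other elongases, 2 each in acyl-CoA activation and acylation, and 10 in the other SREBP targets. DESeq2 gave 2, 1 and 2 in the first 3 of these lists and 1 each in acyl-CoA activation, acylation and the other SREBP targets. Over all genes, 1077 passed with no filter, when all 34493 genes with a count were tested. In DESeq2 564 passed, and it was given the same 17349 genes as the main fit. The list counts of those runs are to be read beside these numbers. Leaving out each library gave 0 to 9, 0 to 5, 0 to 1, 0 to 2, 0 to 5, 0 to 4 and 0 to 13 in the same order of 7 lists, and fatty acid oxidation stayed at 0 throughout. The highest count of each of the 7 lists came without knockdown library 2, when 13.8% of all genes passed. Over the libraries left out, list medians ran from -0.14 to -0.082, -0.28 to -0.058, 0.074 to 0.16, -0.0998 to 0.13, -0.21 to -0.075, -0.097 to -0.038 and -0.63 to -0.33 in that order, and from -0.0012 to 0.13 in fatty acid oxidation. Of the 8 genes most like SCD, 5 were the same with log2 of FPKM plus 1.

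Knockdown and mock libraries share replicate numbers, but the labels give no pairing, and the main fit used none. Deviations from the group means of same-numbered libraries correlated at -0.19, 0.11 and 0.07, and not every library correlated best with its own number. With so few libraries, these correlations cannot settle whether same-numbered libraries were handled together. With the replicate number as a block, 162 genes passed, and 1 gene each in acyl-CoA activation, acylation and the other SREBP targets, while 0 of the 9 lipid genes did. The log2 difference of FASN was then -1.23 (adjusted p = 0.0875 in edgeR). That of SCD was -1.47 with the block, against -0.85 in the main fit. With 3 libraries a group, an exact permutation test of a single gene cannot go below p = 0.1. The biological coefficient of variation was 17.6%.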
